A study of Mus musculus with 12 samples.

Results

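Bromodomains are protein modules that bind acetylated lysines, so proteins that carry one are described as readers of histone acetylation. The readers studied here act in several machines. Brd2 and Brd3 belong to the BET family, which binds acetylated histone H4 and assists transcription. Brd1 is a scaffold of a histone acetyltransferase complex and Brd8 is a subunit of the NuA4/TIP60 acetyltransferase complex. Brd7 and Brd9 are subunits of different forms of the SWI/SNF chromatin remodeller, and Smarca4 (BRG1) and Smarca2 (BRM) are its alternative ATPases. Smarca4 is known to be required for oligodendrocyte differentiation. The data describe whether the genes that encode these readers carry H4K8ac, acetylation of lysine 8 of histone H4, which is itself one of the marks that BET proteins bind.

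The genes were Brd1, Brd2, Brd3, Brd7, Brd8, Brd9, Smarca4 and Smarca2, 8 of the 23433 genes named in the deposited peak lists. Every peak that the authors' annotation gave to one of them was taken, 111 of 269580 peaks over the 6 libraries. H4K8ac was mapped by chromatin immunoprecipitation and sequencing in oligodendrocyte progenitor cells (OPCs), the dividing glia that produce myelinating cells. Cells were sorted from the forebrain of PdgfrαH2BEGFP mice, which carry a green nuclear protein under the control of Pdgfra. All mice had this genotype, and no other allele or treatment is named. There were 3 biological replicates at postnatal day 5 (neonatal) and 3 at day 60 (adult). The comparison asks where H4K8ac peaks differ with age. The reporter marks any cell in which Pdgfra is active, and the number of animals behind a replicate is not given in the labels. The 6 input libraries were not analysed here.

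The lists differed greatly in length. Neonatal replicates 1 and 3 held 9097 and 7353 peaks, neonatal replicate 2 held 31189, and the adult lists held 72278 to 77002. Read totals were not used here, so depth is unknown and a missing peak means only that none was called. The label OPC was checked against marker genes. A promoter peak lay on 6 of 6 OPC markers in each neonatal library and on 5 or 6 in the adult libraries (summed promoter peaks 2.91 to 19.2 kb and 32.0 to 54.0 kb). Myelinating oligodendrocyte markers differed with age, with 1 of 5 marked in each neonatal library (summed promoter peaks 0.435 to 2.14 kb) and 5 of 5 in each adult library (34.2 to 54.8 kb). Mog, Mag, Mobp and Opalin had no promoter peak in any neonatal library. Neuronal markers were marked in 0 to 3 and 2 to 4 of 6, astrocyte markers in 1 to 4 of 6 at both ages, and fibroblast markers in 0 to 3 and 2 to 3 of 6. Microglial and endothelial markers were at 0 of 6 in the neonatal and 1 of 6 in the adult libraries, where 5 of 6 in each list had no promoter peak in any library. The part of these cells in the results below was not tested, and a larger share of marked cells cannot be told apart from more mark per cell.

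Promoter DNA of 4 of the genes is shown because the peaks lie around it in different ways, as described gene by gene. Each line gives the part of the 250 bases upstream of a RefSeq transcription start site (TSS) that lies outside every protein-coding gene. It is read 5′ to 3′ on the gene's strand in GRCm38.p6. The lines end short of that start, since the bases nearest to it lie inside the gene's own span. Capitals mark matches to the motifs searched.
Smarca4, chr9:21615919-21616105, + strand: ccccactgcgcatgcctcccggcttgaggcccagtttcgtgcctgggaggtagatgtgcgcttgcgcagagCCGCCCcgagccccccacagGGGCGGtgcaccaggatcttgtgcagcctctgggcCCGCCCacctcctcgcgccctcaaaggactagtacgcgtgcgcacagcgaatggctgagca
Smarca2, chr19:26604910-26605072, + strand: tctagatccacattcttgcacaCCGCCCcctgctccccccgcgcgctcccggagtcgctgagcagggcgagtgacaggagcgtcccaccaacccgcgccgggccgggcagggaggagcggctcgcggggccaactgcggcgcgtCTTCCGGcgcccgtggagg
Brd1, chr15:88734229-88734469, - strand: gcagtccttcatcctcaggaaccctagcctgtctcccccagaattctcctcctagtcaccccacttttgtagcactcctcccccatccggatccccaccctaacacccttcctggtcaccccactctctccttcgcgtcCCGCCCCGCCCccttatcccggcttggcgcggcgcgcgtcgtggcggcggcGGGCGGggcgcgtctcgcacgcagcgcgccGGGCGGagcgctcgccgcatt
Brd7, chr8:88362253-88362422, - strand: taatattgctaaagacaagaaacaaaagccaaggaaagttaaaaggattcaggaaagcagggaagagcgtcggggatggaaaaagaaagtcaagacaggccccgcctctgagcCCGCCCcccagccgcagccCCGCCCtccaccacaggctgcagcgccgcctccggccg
The RefSeq table held a promoter for 7 of the 8 genes and not for Brd8. In the printed stretches the capitals are GC boxes (GGGCGG or its reverse complement CCGCCC), except CTTCCGG in Smarca2, the reverse complement of the ETS motif CCGGAAG. In Brd1 a pair of GC boxes overlaps by a base. In the full 250 bases upstream of each start, a GC box was found 4 times in Brd1, 4 times in Brd9, 3 times in Smarca4, 2 times in Smarca2, 2 times in Brd7 and 1 time in Brd3. Among the 3 Brd2 starts, 1 held a GC box. A GC box lay in 32.9% of all 32585 promoters of the table and in 58.8% of the 13443 with a peak within 1000 bp in all adult libraries. The ETS motif lay in Brd9, Smarca2 and 1 of the Brd2 starts, in 6.95% of all promoters and in 13.3% of those with adult peaks. The palindromic NRF1 motif lay in 1 Brd2 start, in 0.783% of all promoters and in 1.67% of those with adult peaks. Searched on both strands in the same windows, the CCAAT box matched none of these genes, against 34.0% of all promoters and 33.8% of those with adult peaks. The same held for the TATA box (TATAAA, 12.4% and 5.48%), the cyclic AMP response element (TGACGTCA, 1.56% and 2.65%) and the E-box (CACGTG, 6.06% and 8.40%). CpG pairs numbered 12 to 37 per 250 bases, against a median of 6 in the table and 16 in promoters with adult peaks. Each match describes these letters and not a bound site.

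Counted together, the H4K8ac peaks assigned to the reader genes covered more bases in adult than in neonatal libraries. A promoter peak (within 3000 bp of a TSS in the authors' annotation) was assigned to 4, 7 and 4 of the 8 genes in neonatal replicates 1, 2 and 3, and to 7 in each adult library. Over all 23433 genes a promoter peak was assigned to 27.2%, 58.5% and 24.0% in neonatal and to 66.2%, 64.5% and 66.1% in adult replicates 1, 2 and 3. Of the 14228 protein-coding genes of the lists, 11129 had a promoter peak in all adult libraries. Promoter peaks covered 4.33, 10.1 and 3.96 kb in the neonatal libraries and 15.5, 13.8 and 16.9 kb in the adult libraries. Peaks of other classes numbered 1, 3 and 0 in neonatal and 11, 8 and 17 in adult libraries. The libraries of the ages did not overlap in these lengths or in the number of other peaks, whereas in the number of marked promoters neonatal replicate 2 equalled the adult libraries. In covered length the whole lists did not overlap either, at 2.33 to 13.7 Mb in neonatal and 41.9 to 60.9 Mb in adult libraries.

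The means were 6.13 ± 3.44 kb of promoter peaks in neonatal and 15.4 ± 1.56 kb in adult libraries (SD, n = 3 each), and 0.488 ± 0.590 and 5.79 ± 2.82 kb of other peaks. By class, the other peaks of the adult libraries were 2 to 8 in introns, 2 to 5 distal intergenic, 2 to 3 in 3′ untranslated regions and 1 to 2 in exons. The share of these genes' peaks that were promoter peaks was 89.0% ± 9.79 in neonatal and 56.5% ± 7.86 in adult libraries. The whole lists fell likewise, from 85.2%, 67.5% and 88.8% in neonatal to 43.9%, 43.1% and 40.4% in adult replicates 1, 2 and 3. By gene, 7 of the 8 had more covered bases in every adult than in every neonatal library, where 60.0% of all 23433 genes and 68.2% of protein-coding genes did so. The count is read against that general difference. In promoter bases 7 of the 8 separated in this way, against 60.1% of genes with a promoter peak. In other bases 3 of the 5 genes with such a peak did (Brd1, Brd3 and Brd7), against 51.8% of genes. All of the other peaks assigned to Brd1 and most of those assigned to Brd7 lay outside the gene spans. The reverse pattern was found in 0.303% of all genes and in 0 of the 8. With 3 libraries against 3, the exact two-sided permutation test cannot give less than 0.1 (adjusted p at least 0.166 over all genes), so no gene could pass 0.05.

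**Figure D1:**
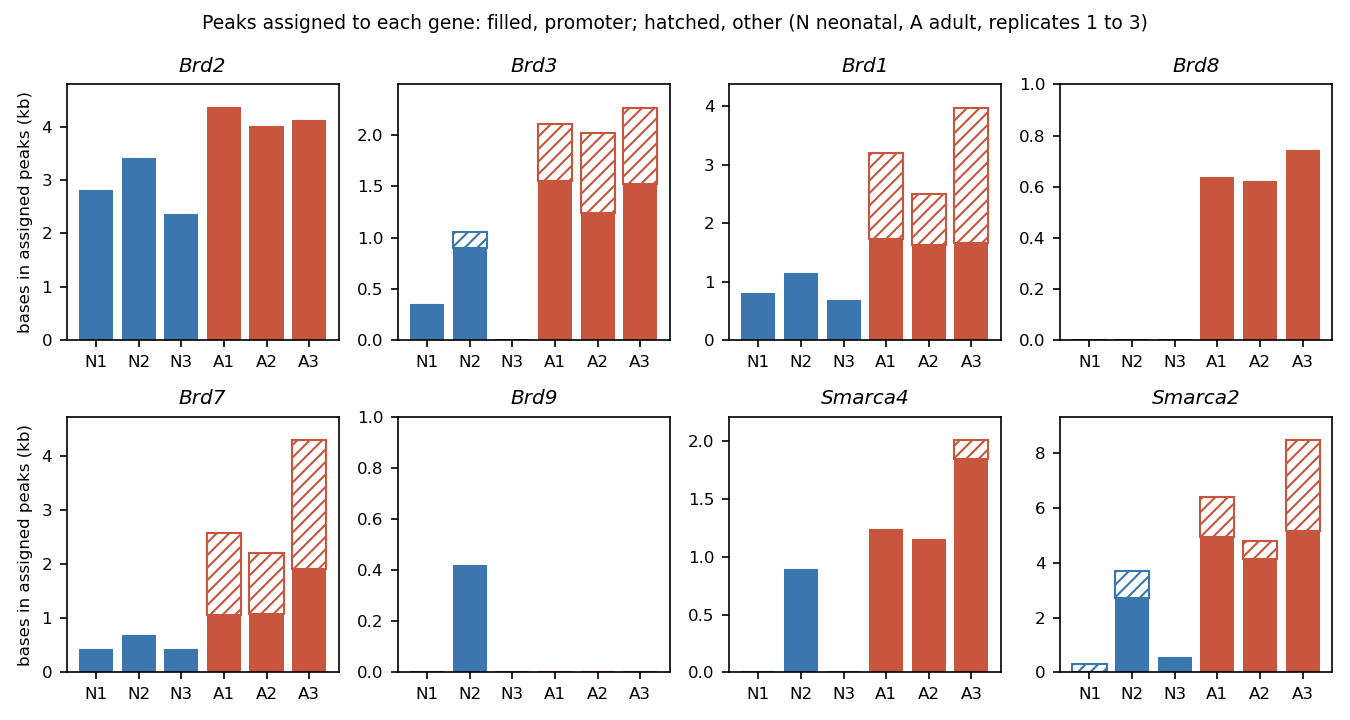
Bases in peaks assigned to each of the 8 genes (kb, y axis scaled per gene), in neonatal (N, blue) and adult (A, red) replicates 1 to 3, with promoter peaks filled and other peaks hatched. Adult bars are higher than every neonatal bar except for Brd9, which has an assigned peak in neonatal replicate 2 alone.

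Of the 2 BET genes, Brd2 was the most widely marked per length of gene among the 8 at either age. Brd2 (ENSMUSG00000024335.20, chr17:34112019-34122814, minus strand) had 2.79, 3.39 and 2.35 kb of peaks in neonatal replicates 1, 2 and 3, and 4.36, 4.003 and 4.10 kb in adult replicates. Every adult library lay above every neonatal one, with means of 2.84 ± 0.521 and 4.15 ± 0.182 kb (SD, n = 3 each; exact permutation p = 0.1). All of its peaks were promoter peaks. In the adult libraries and neonatal replicate 2, 1 peak of 3383 to 3689 bp ran across the gene's 5′ end and its 3 RefSeq starts, and in neonatal replicates 1 and 3 the same stretch was broken into 3 peaks. All of these peaks also overlap the neighbouring gene H2-DMa. Each adult library had a further peak of 468 to 667 bp inside Brd2, where no neonatal library had one. Brd2's leading peak was within the strongest 2.19% of its own list in every library, with the authors' fold enrichment at 9.07 to 11.9 in neonatal and 16.2 to 19.8 in adult lists. In the authors' deposited table the Brd2 site inside the long peak, centred 528 bp downstream of the middle start, had log2 1.64 (adjusted p = 0.000902), and the site at the peak found in adult libraries alone had log2 2.11 (adjusted p = 0.00355). Positive log2 values mean higher in adult. Fold enrichments throughout are the authors' own and describe peaks within a list.

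Brd3 was marked over shorter stretches. Brd3 (ENSMUSG00000026918.16, chr2:27445576-27507657, minus strand) had 0.339, 0.902 and 0 kb of promoter peaks in neonatal replicates 1, 2 and 3, and 1.56, 1.25 and 1.52 kb in adult replicates. Neonatal replicate 3 had no peak at Brd3 at all. The adult values lay above all neonatal values (0.414 ± 0.456 and 1.44 ± 0.172 kb, SD, n = 3 each; exact permutation p = 0.1). A further element, in the first intron of a longer transcript and 10.4 to 10.8 kb downstream of its start, had peaks in every adult library (0.551, 0.776 and 0.745 kb) and a 155 bp peak in neonatal replicate 2. The Brd3 promoter site in the authors' deposited table had log2 1.51 (adjusted p = 0.00256).

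Brd1, the acetyltransferase scaffold, had a promoter peak in all 6 libraries, a pattern shown by 21.5% of the 18548 genes with a promoter peak. Brd1 (ENSMUSG00000022387.17, chr15:88687034-88734228, minus strand) had 0.786, 1.13 and 0.678 kb of promoter peaks in neonatal replicates 1, 2 and 3 and 1.74, 1.63 and 1.66 kb in adult replicates. The groups did not overlap (0.863 ± 0.233 and 1.68 ± 0.0575 kb, SD, n = 3 each; exact permutation p = 0.1). In adult replicate 1 this was the peak of rank 185 among 72278, with a fold of 29.1, whereas in adult replicate 3 it ranked 5421 with a fold of 7.81. The summit of the main peak lay downstream of the start in all libraries (200 to 326 bp neonatal, 170 to 364 bp adult). The reach of the peaks upstream differed. Of the 250 bases upstream of the start, which include the Brd1 stretch printed above, 100% were covered in each adult library, against 0%, 33.2% and 0% in neonatal replicates 1, 2 and 3, where the main peak lay downstream of the start.

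Away from the promoter, Brd1 was assigned 3, 2 and 3 distal intergenic peaks in the adult libraries and none in the neonatal libraries. In all adult libraries they included peaks upstream of the TSS, with their near edges at -6.92 to -7.44 kb, which together covered 0.879 to 1.36 kb in each library and overlapped the RefSeq gene model Gm41377. Adult replicates 1 and 3 had further peaks beyond the other end of the gene. The authors' deposited table gives the upstream site (chr15:88741694-88742093) log2 6.26 (adjusted p = 9.75e-08), above 98.7% of listed sites. By contrast, the Brd1 promoter site of the authors' deposited table (chr15:88733795-88734194) had log2 1.53 (adjusted p = 0.000651), above 31.2% of listed promoter sites.

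Brd8, of the NuA4/TIP60 complex, was the one reader gene with a promoter peak in every adult and no neonatal library, a pattern shown by 12.1% of the 18548 genes with a promoter peak. Brd8 (ENSMUSG00000003778.14, chr18:34598611-34624863, minus strand) had 0 kb in each neonatal library and 0.635, 0.618 and 0.741 kb in adult replicates 1, 2 and 3 (exact permutation p = 0.1). Its peak spans the TSS and overlaps the neighbouring gene Kif20a. It was of modest rank, 20.9% to 29.2% down its lists, with folds of 5.75 to 7.37. No neonatal peak lay within 3000 bp of this start under any gene's name, and no adult Brd8 peak was among the 7353 strongest of its list. The authors' deposited table gives the promoter site log2 1.56 (adjusted p = 0.00168).

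**Figure D2:**
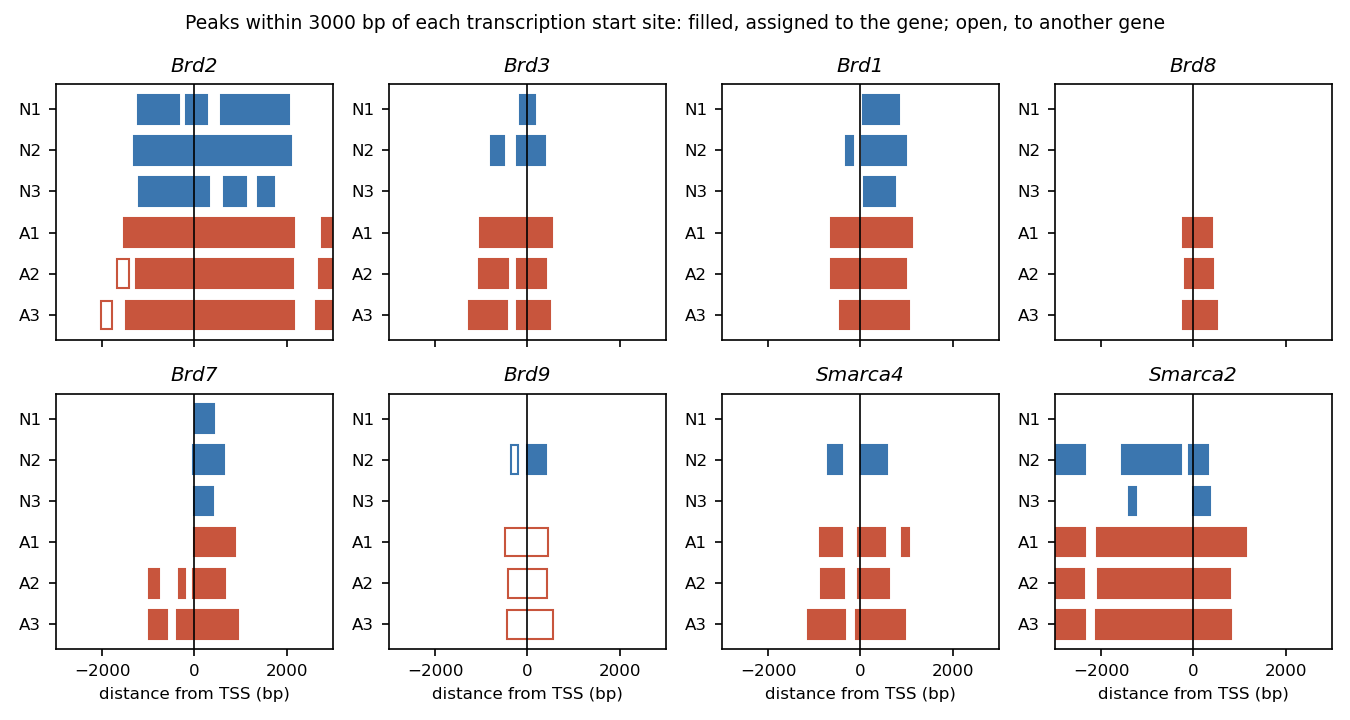
Peaks within 3000 bp of a start site of each gene (x axis, bp, transcription to the right; the start named by most of the gene's peaks within 1000 bp), by library, filled where assigned to that gene and open where assigned to a neighbour. Adult peaks at Brd9 are all open, Smarca4 has a gap just to the left of the plotted start, and neonatal peaks at Brd1 lie mainly to the right of the start.

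The SWI/SNF subunit genes Brd7 and Brd9 differed in how often they were detected. Brd7 (ENSMUSG00000031660.13, chr8:88329894-88362252, minus strand) had a promoter peak in all 6 libraries, with 0.417, 0.670 and 0.407 kb in neonatal and 1.06, 1.07 and 1.91 kb in adult replicates 1, 2 and 3. The adult values lay above the neonatal ones (0.498 ± 0.149 and 1.35 ± 0.484 kb, SD, n = 3 each; exact permutation p = 0.1). Its leading adult peaks ranked 1382, 688 and 271 in their lists. The 250 bases upstream, which include the printed Brd7 stretch, were covered over 1.6%, 17.6% and 9.2% in neonatal and 14.4%, 30.8% and 100% in adult replicates 1, 2 and 3, so most of this window was outside the peaks in 5 of 6 libraries.

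Beyond its promoter, Brd7 was assigned peaks in a 3′ untranslated region in every adult library and in no neonatal library. These 7 peaks lie 3.02 to 4.74 kb downstream of a Brd7 start in the authors' annotation, beyond the 3′ end of Brd7, and all 7 overlap the neighbouring gene Adcy7. Only the peak at 88328964-88329904 in adult replicate 3 reaches into the Brd7 span. The authors' deposited table lists a site among these peaks, outside the Brd7 span (chr8:88329025-88329424), with log2 5.24 (adjusted p = 2.84e-08). Of the Brd7 promoter sites in the authors' deposited table, that at the start (chr8:88361828-88362227) had log2 1.49 (adjusted p = 0.000722) and overlapped a peak in all 6 libraries. The other, centred at -824 bp (chr8:88362819-88363218), reached log2 4.02 (adjusted p = 5.60e-05), per the authors' deposited table, and overlapped a peak in 2 adult libraries.

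Brd9 (ENSMUSG00000057649.6, chr13:73937801-73960895, plus strand) had an assigned peak in neonatal replicate 2 alone, 416 bp long with a fold of 10.8. The adult peaks at its start were assigned to a neighbour. In each adult library a peak of 943, 850 or 981 bp covered the Brd9 start, with folds of 10.8 to 11.98, and the authors' annotation named it for Trip13, a gene for an AAA ATPase whose start lies beside that of Brd9. By position, covered bases within 3000 bp of the start were 0, 578 and 0 bp in neonatal and 943, 850 and 981 bp in adult replicates. The adult libraries then lay above the neonatal ones, opposite in direction to the assigned peaks. The site over the start (chr13:73937730-73938129) had log2 1.13 in the authors' deposited table (adjusted p = 0.0423), above 5.96% of listed promoter sites and the lowest value at any of the 8 genes.

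The remodeller ATPase genes shared a layout at the promoter. Smarca4 (ENSMUSG00000032187.16, chr9:21616106-21704230, plus strand) had 0, 0.888 and 0 kb of promoter peaks in neonatal replicates 1, 2 and 3 and 1.23, 1.15 and 1.85 kb in adult replicates (0.296 ± 0.513 and 1.41 ± 0.383 kb, SD, n = 3 each; exact permutation p = 0.1). In neonatal replicates 1 and 3 no peak lay within 3000 bp of its start. In the 4 libraries with peaks, these lay on both sides of the RefSeq start and left a peak-free stretch of 393 bp in neonatal replicate 2 and of 334, 315 and 239 bp in adult replicates 1, 2 and 3. Of the 250 upstream bases, 8% were covered in adult replicate 3 and 0% in each of the other 5 libraries, so the printed Smarca4 stretch is nearly all within the gap.

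Smarca2 (ENSMUSG00000024921.17, chr19:26605073-26778321, plus strand) showed a gap in the same place. Peaks ended at 26604901 to 26604919 on chromosome 19 and began again at 26605156 to 26605199, beside the RefSeq start at 26605160, in the adult libraries, leaving 268, 297 and 236 bp free of peaks. In neonatal replicate 2 the stretch was 812 bp. The peaks upstream of the gap overlapped the RefSeq gene model Gm52395 and not the Smarca2 span. Between 0% and 5.6% of the 250 upstream bases were covered in the 6 libraries, and the printed Smarca2 stretch lies in that gap apart from its first bases. A window under 10% covered, with peaks on both sides within 1000 bp, in all 3 adult libraries was found at 509 of the 13443 promoters with adult peaks, or 3.79%. That limit was chosen after the coverage was seen. The median coverage over the 13443 windows was 71.2%, 56.4% and 100% in adult replicates 1, 2 and 3, and at Brd1, Brd2 and Brd9 it was 100% in each adult library.

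**Figure D3:**
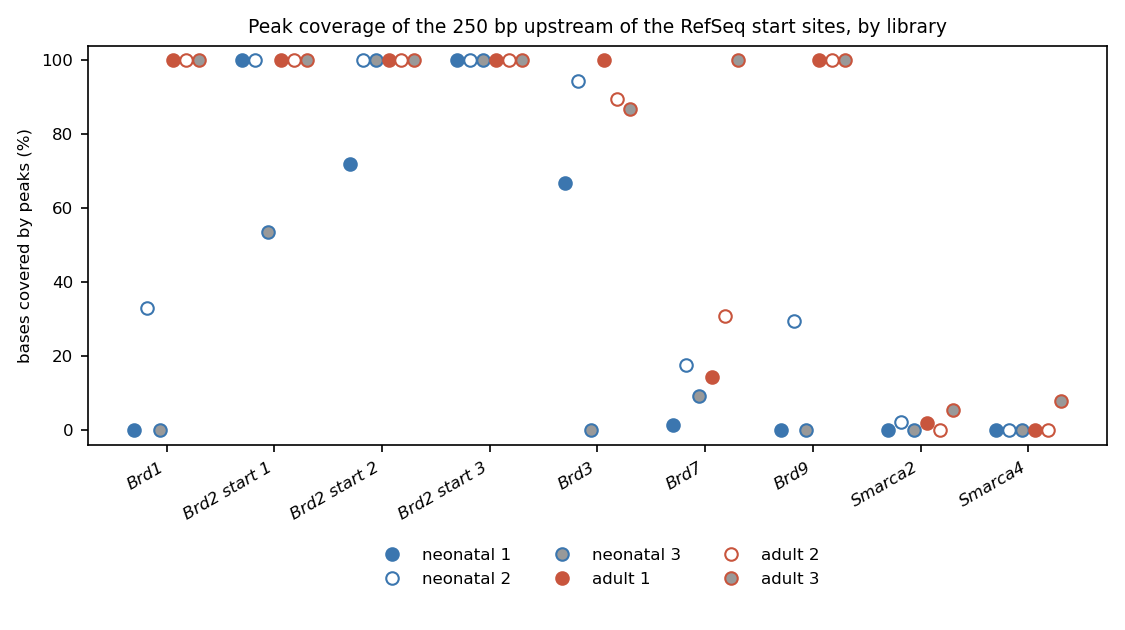
Share of the 250 bp upstream of each RefSeq start covered by peaks (%), 1 point per library, for 7 genes (3 starts of Brd2, numbered by coordinate; the more upstream of 2 near-identical Brd9 starts). Smarca4 and Smarca2 stay at or below 8% in all libraries, whereas Brd1, Brd2 and Brd9 reach 100% in each adult library.

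Smarca2 had 7, 6 and 13 peaks in adult replicates 1, 2 and 3, and 1, 6 and 2 in neonatal replicates. Its promoter peaks covered 0, 2.71 and 0.525 kb in neonatal and 4.93, 4.12 and 5.16 kb in adult replicates 1, 2 and 3 (1.08 ± 1.44 and 4.74 ± 0.544 kb, SD, n = 3 each; exact permutation p = 0.1). The neonatal libraries differed among themselves, with replicate 2 nearer to the adult values. Other peaks covered 0.321, 0.988 and 0 kb in neonatal and 1.45, 0.670 and 3.32 kb in adult replicates, and these ranges overlapped (exact permutation p = 0.2). The gene is 173 kb long, and per kb of gene its covered length was 27.7 to 48.9 bp in adult libraries, against 13.0 to 22.8 bp for Smarca4 (88.1 kb) and 371 to 403 bp for Brd2 (10.8 kb).

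Within Smarca2 the peaks formed groups. An element in intron 3 and exon 4, between 26629604 and 26631327 on chromosome 19, was marked in neonatal replicates 1 and 2 and in every adult library. An internal start, at which neonatal replicate 2 and all adult libraries had a promoter peak, lay further into the gene. Between these, intron 27 held 2 peaks in adult replicate 1, 4 in adult replicate 3 and none in the other libraries. In the authors' deposited table the Smarca2 sites had log2 2.02 upstream of the start (adjusted p = 0.000892), 1.57 downstream of it (adjusted p = 0.00349), 1.40 in exon 4 (adjusted p = 0.0121), and 2.48 and 2.07 in intron 27 (adjusted p = 0.00395 and 0.0201). The Smarca4 site of the authors' deposited table had log2 1.49 (adjusted p = 0.00512).

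**Figure D4:**
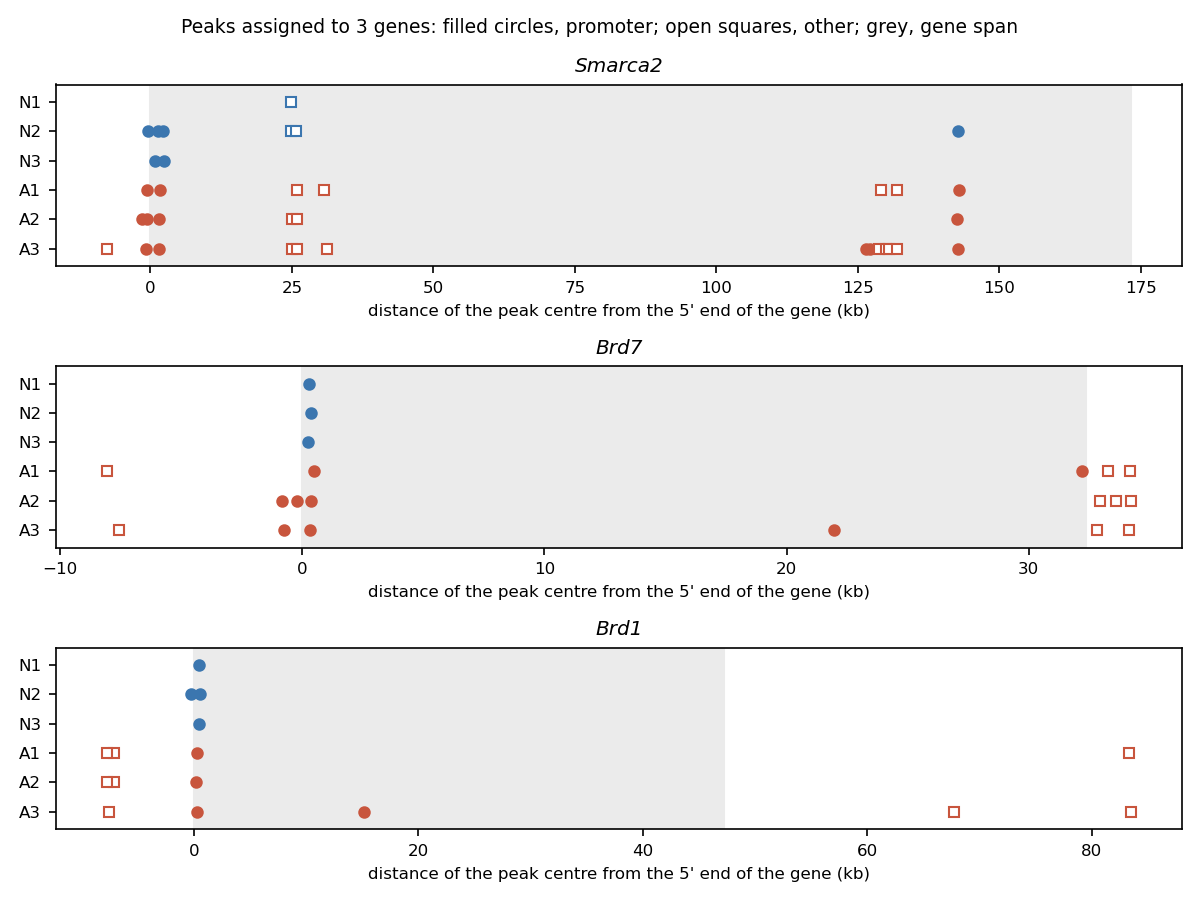
Centres of the peaks assigned to Smarca2, Brd7 and Brd1, in kb from the 5′ end of each gene, by library (N neonatal, A adult), with promoter peaks as filled circles, other peaks as open squares and the RefSeq gene span in grey. Non-promoter peaks of Brd7 and Brd1 occur in adult libraries alone, whereas Smarca2 has some in neonatal replicates 1 and 2.

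Over all reader genes, 15 sites of the authors' deposited table were assigned to members, and the adult signal was the higher in 15 of 15. That is the general share, since 99.4% of the 43888 sites in the authors' deposited table, which lists those past its threshold, were higher in adult. Of the 54838 sites behind the authors' deposited table, 79.6% rose with age and 0.463% fell. Promoter sites that rose were listed in the authors' deposited table for 7 of the 8 genes by assignment, against 64.3% of genes with a promoter peak, and the Brd9 start adds the eighth by position. None of the 8 had a promoter site that fell, against 0.728% of genes. By assignment, sites outside promoters rose for 3 of the 5 readers with such a peak (Brd1, Brd7 and Smarca2) in the authors' deposited table, against 56.9% of genes. Those of Brd1 and Brd7 lie outside the gene spans. The 10 reader promoter sites had a median log2 of 1.57 in the authors' deposited table, and all 19341 promoter sites 1.86. The 5 reader sites outside promoters had a median of 2.48 there, and the 24539 such sites of the authors' deposited table had 2.85. With unlisted sites ranked lowest, the authors' deposited table puts the median log2 over every tested site at no less than 2.04, and 8 of the 10 reader promoter sites lie below 2.04. The figure of 2.04 takes in sites of every class, and the listed promoter sites alone had a lower median (1.86).

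**Figure D5:**
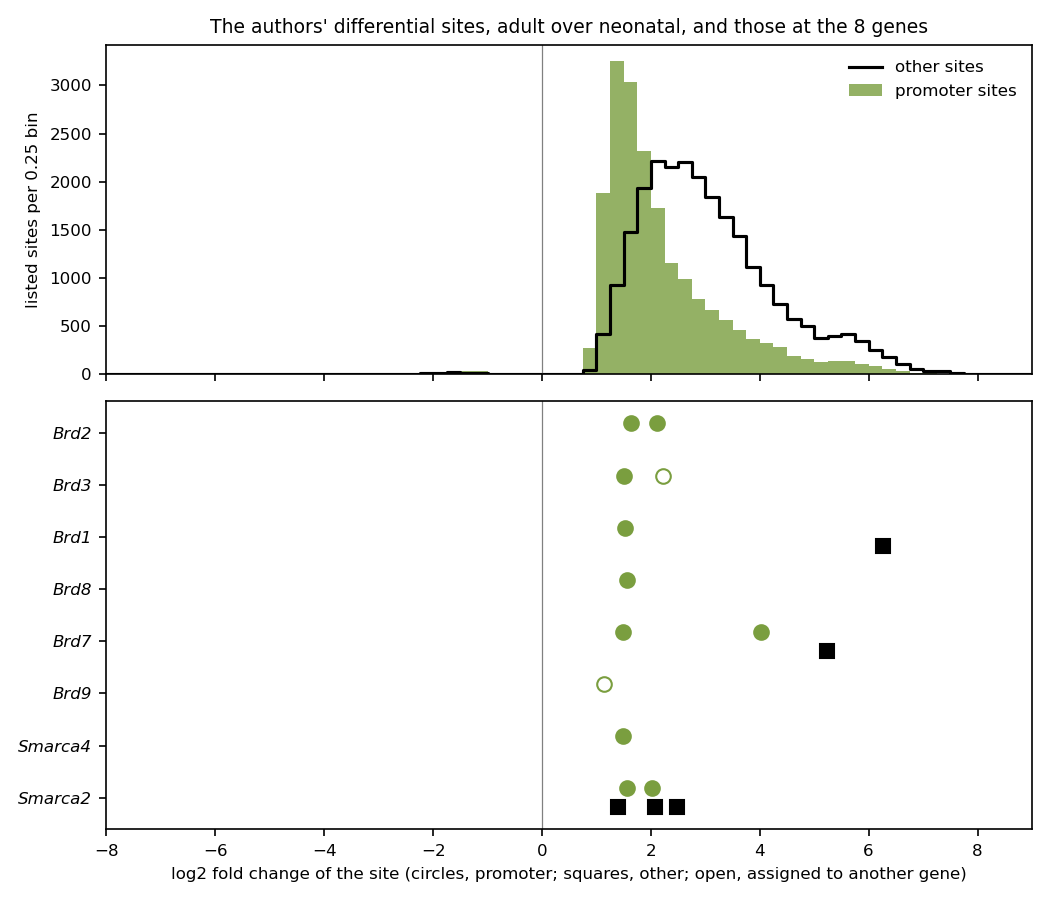
Above, the number of listed differential sites by log2 fold change (adult over neonatal, bins of 0.25), for promoter (green) and other (line) sites of the authors' deposited table; below, the sites at the 8 genes. All lie above 0, most promoter sites near 1.5, with the sites beside Brd1 (6.26) and Brd7 (5.24) far to the right.

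The number of neonatal libraries in which a reader promoter was marked varied from gene to gene. Of the 7 genes marked in all adult libraries, Brd1, Brd2 and Brd7 were marked in 3 neonatal libraries, Brd3 and Smarca2 in 2, Smarca4 in 1 and Brd8 in 0. Among 11129 protein-coding genes marked in all adult libraries, 33.9% were marked in 3 neonatal libraries, 22.9% in 2, 34.0% in 1 and 9.20% in 0. A promoter peak in all neonatal and no adult library was found on none of the 8 and on 0.264% of genes.

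List length bears on these comparisons. When each library was limited to its 7353 strongest peaks, 7 of the 8 genes kept a peak in some library. Of these, 3 of 7 (Brd1, Brd3 and Brd7) had more covered bases in every adult library, against 34.4% of 10859 genes with such a peak, and 0 had the reverse, against 4.64%. The promoters marked were then 4, 7 and 4 of 8 in neonatal replicates and 6 in each adult library. Brd1, Brd2 and Brd7 kept a promoter peak in all 6 libraries. The share of all genes with a promoter peak was not counted at this length, so these promoter counts describe the 8 genes alone. Smarca2 values overlapped, at 0, 1.90 and 0.525 kb in neonatal and 0.971, 0.928 and 1.27 kb in adult replicates (exact permutation p = 0.8). Without neonatal replicate 2, the longest neonatal list, adult promoter peaks exceeded neonatal ones by 11.3 kb in place of 9.30 kb.

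Genes of related complexes and other bromodomain genes are given as counts beside the same background. A promoter peak lay on 24.0% to 58.5% of all listed genes in the neonatal and on 64.5% to 66.2% in the adult libraries. Protein-coding genes were marked more often, with a promoter peak in all adult libraries on 11129 of 14228, against 13566 of all 23433 genes. Of the 12058 genes with a promoter site in the authors' deposited table, 99.0% were higher in adult at the site of smallest p (median log2 1.77), so a list with all its genes higher is at the general share. For the 9719 protein-coding genes among them the median was 1.69. Of 31 other bromodomain genes (29 named in the lists), 21 to 24 had a promoter peak in the neonatal and 26 to 27 in the adult libraries, and all 23 with a promoter site in the authors' deposited table were higher in adult (median log2 1.52). The values in the authors' deposited table ran from 1.09 for Zmynd11, a reader of methylated histone H3, to 3.01 for Baz2b. Taf1, a subunit of the general factor TFIID, was the one gene of that list marked in all adult and no neonatal library. Of 22 SWI/SNF partner subunits (20 named in the lists), 15 to 19 were marked in neonatal and 20 in each adult library, and 20 of 20 listed genes were higher in adult in the authors' deposited table (median 1.57). The extremes there were Arid1a (5.83), the DNA-binding subunit of the BAF form, and Bcl7c (0.99), and Phf10 was marked in adult libraries alone. Arid1a and Baz2b had a promoter peak in 3 neonatal libraries, whereas listed promoter sites with a peak in 3 neonatal libraries reached at most log2 2.75. The sites behind the Arid1a and Baz2b values thus did not overlap a peak in every neonatal library.

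A further list held 22 genes of histone acetyltransferase complexes, not all of them partners of Brd1 or Brd8. Of these 22, 13 to 21 were marked in neonatal and 21 to 22 in adult libraries. Promoter sites rose with age for 22 of 22 in the authors' deposited table (median 1.52), from Kat5 (1.02), the catalytic subunit of the TIP60 complex, to Jade1 (4.21). Jade1 too had a promoter peak in 3 neonatal libraries, but the site with this value did not overlap one in every neonatal library. Ruvbl2, an ATPase of that complex, was marked in all adult and no neonatal library. Of 7 genes of P-TEFb, the elongation kinase that BET proteins recruit, and its regulators, 4 to 7 were marked in neonatal and 7 in adult libraries. Promoter sites rose for 6 of 6 in the authors' deposited table (median 1.56), from Larp7 (1.06) to Ccnt1 (1.80). Reader medians and those of the 4 lists thus lay between 1.52 and 1.57, and no test compared them.

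The genes whose covered promoter and other bases were nearest to the reader average, over 12 values from 6 libraries, were Fig4, Cplane1 and Wdsub1 (Euclidean distance of log2 values 6.35, 6.55 and 6.66, against a median of 15.0 over all genes). The readers themselves lay 10.3 to 20.2 from their own average, with Smarca4 nearest and Brd9 farthest. Each of the 3 genes had a promoter peak in all 6 libraries and other peaks in adult libraries alone.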

How the data were processed

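Peak lists of 6 H4K8ac libraries were used, 3 per age. Per the submitters' processing notes, the tools were Trim Galore, Bowtie2 2.4.5, SAMtools, deepTools, MACS2, DiffBind and ChIPseeker and the build GRCm38; their settings are not given in the sources used here. Each deposited list, called per library, gives every peak a score, a fold enrichment (ratio), the −log10 p-value, the −log10 q-value and a gene, per the file headers. The authors deposited a headerless table of 400 bp differential sites with a log2 fold change, p-value and adjusted p-value; positive values overlapped adult peaks and were read as higher in adult. The number of sites tested, 54838, was recovered from the adjustment.

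Files start coordinates at 0; printed ones start at 1. Covered bases were peak widths summed per gene, compared by exact two-sided permutation over 20 arrangements and Benjamini-Hochberg adjustment over all genes; the code was tested on simulated data. A site took the gene and class of the peak sharing most bases. RefSeq spans (GRCm38.p6) matched 14216 of 14228 protein-coding genes. Alternatives were the 7353 strongest peaks per library, q under 0.005, merging within 1000 bp, promoters within 1000 bp, gene spans extended by 3000 bp, each library left out, a replicate block, adjusted p under 0.005 and 50% site overlap. All 8 genes were named; from comparison lists, those with the highest and lowest promoter value (the site of smallest p) and the first adult-only or neonatal-only gene in alphabetical order. Members and lists were chosen with earlier results of these data known. One gene of the myelinating oligodendrocyte marker list is not reported here. Python 3.11.15, numpy 2.4.6, pandas 2.3.3, scipy 1.17.1 and matplotlib 3.10.9 were used.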

Additional observations from a re-analysis of the deposited data

How the results depend on the processing

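With the 7353 strongest peaks per library, the adult minus neonatal difference was 0.333 promoter peaks (6.33 with all peaks), 0 other peaks (10.7), 4631 promoter bases (9301) and 0 other bases (5304), and 3 in place of 7 genes separated the ages. With peaks within 1000 bp merged, the difference in other peaks was 7. By gene span extended by 3000 bp, Brd9 reversed to 782 bases more in adult (-139 by assignment), since its adult peaks are named for Trip13. All 8 genes then separated, but spans also take in peaks named for neighbours. The share of all genes separating by span was not counted, so that count has no background. At equal list length no Brd8 peak was left, and without neonatal replicate 2 Brd9 had none in any library. The other 7 genes kept their sign wherever peaks were left. Leaving out 1 library cannot undo a separation, so the 7 genes stayed separated by construction and this count is no check. Promoter bases then differed by 8.22 to 11.3 kb and other bases by 3.73 to 6.47 kb. In the authors' deposited table, 12 member sites stayed at adjusted p under 0.005, 16 by span and 15 at 50% overlap, none higher in neonatal cells.

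Replicate numbers did not pair the libraries: deviations of same-numbered libraries correlated at -0.0378, 0.0254 and 0.0697 across genes. With the replicate block, the exact sign-flip test gave p = 0.25 for 7 genes, its smallest value, and 1 for Brd9; the differences are as without it, from 665 bases (Brd8) to 5037 bases (Smarca2) and -139 for Brd9. Depth is unknown, so an uncalled peak sets no upper limit on the mark.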
